A study of Mus musculus with 15 samples.

Results

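The genes described here encode nuclear-encoded subunits of the 4 respiratory chain complexes and of ATP synthase, with some of their assembly factors, in myeloid progenitors of mice with mutant Cebpa. They were taken by name, as genes whose symbol begins with Ndufa, Ndufb, Ndufc, Ndufs, Ndufv, Uqcr, Sdh, Cox4 to Cox8 or Atp5. The rule uses no measured value, but it was chosen with earlier results of these data known. On the arrays the rule gave 93 of the 19937 genes with a single gene symbol. Complex I was represented by 36 genes, complex II by 4, complex III by 8, complex IV by 17 and complex V, the ATP synthase, by 17. The prefixes also took 11 assembly factors, 7 named Ndufaf and 4 named Sdhaf, which help to build complexes I and II and are not subunits of them.

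Complexes I and II pass electrons from NADH and succinate to coenzyme Q, complex III passes them on to cytochrome c, and complex IV hands them to oxygen. Complexes I, III and IV pump protons across the inner mitochondrial membrane, and complex V uses the proton gradient to make ATP. Blood stem cells are known for a low reliance on this pathway, and progenitors that proliferate and differentiate towards the myeloid lineage draw on it more.

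Progenitors were sorted from the bone marrow of female C57BL/6 mice 3 weeks after conditional knockout, and the age of the mice is not given in the sources used here. Both stages were sorted as Lin-, Sca1- and cKit+ cells without CD150 or CD41. PreGMs, the earlier stage, also lacked Endoglin and FcgRII, and GMPs, the granulocyte-macrophage progenitors, carried FcgRII, with no Endoglin gate given. There were 5 groups of 3 arrays, the preGM groups +/+ and fl/p30 and the GMP groups fl/+ (control), fl/BRM2 and fl/p30. Here fl is the floxed Cebpa allele, p30 an allele that yields the short isoform of C/EBPα alone, and BRM2 an allele with a mutated basic region. Every group carried Mx1Cre, spelled Mx1Ce in the labels of preGM +/+, a recombinase under the interferon-inducible Mx1 promoter, which is active in many tissues and not in the myeloid lineage alone. The control differed by stage, with unfloxed Cebpa in preGMs and 1 floxed allele in GMPs. In fl/p30 both stages were sorted from each of 3 mice, which share a replicate number, and every other array has a mouse of its own, so p-values measure the spread between animals together with that between preparations.

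Values are log2 levels, and a difference is one of log2 group means ± its standard error (SE, n = 3 arrays per group). A gene was called where limma's p-value, adjusted by Benjamini-Hochberg over all 19937 genes of a comparison, was under 0.05. The array medians lay between 6.03 and 6.23. Against the gate, Fcgr3, Ms4a3 and Fcgr2b were called higher and Flt3, Cd34, Eng and Kit lower in GMP fl/+ than in preGM +/+. In 89 of the 93 genes the mean over all arrays was at or above the overall median, and Cox7b2, Cox8b, Cox8c and Ndufa4l2 lay below the median of their own array on all 15. These 4 are tissue-restricted or hypoxia-linked isoforms, and their values are near background. Since many genes of these complexes have near-identical processed copies in the genome, a probe set may also read such copies, which the deposited values cannot separate.

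Promoter stretches of 4 genes are shown because nuclear respiratory genes are known for sites of NRF-1, of the ETS factor GABP and of YY1 near their start. They belong to Cox7a2l, the gene called against both mutants below, to Sdhb, which had the widest range over the GMP fl/+ arrays, to Uqcr11, whose preGM arrays did not overlap between genotypes, and to Uqcrh, the highest of complex III in both GMP mutants, which did not pass the test. Each gives the 120 bases before the RefSeq start site (GRCm38.p6) on the gene's strand, 5′ to 3′, and capitals mark matches to the 4 motifs searched. Cox7a2l lies at chr17:83514334-83514453 on the minus strand, Sdhb at chr4:140961151-140961270 on the plus strand, Uqcr11 at chr10:80406822-80406941 on the minus strand and Uqcrh at chr4:116075071-116075190 on the minus strand.
Cox7a2l: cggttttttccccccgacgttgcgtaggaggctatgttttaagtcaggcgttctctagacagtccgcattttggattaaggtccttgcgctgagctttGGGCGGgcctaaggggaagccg
Sdhb: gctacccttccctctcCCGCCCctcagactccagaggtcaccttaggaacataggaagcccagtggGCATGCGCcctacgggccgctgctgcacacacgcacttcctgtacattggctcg
Uqcr11: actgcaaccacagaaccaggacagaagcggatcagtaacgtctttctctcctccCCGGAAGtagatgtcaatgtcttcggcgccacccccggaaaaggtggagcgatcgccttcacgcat
Uqcrh: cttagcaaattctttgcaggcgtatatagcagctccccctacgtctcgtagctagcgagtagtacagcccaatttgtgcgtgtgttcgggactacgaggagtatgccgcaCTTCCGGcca

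The motifs were searched on both strands in windows from 250 bases before to 50 after the start, which the RefSeq table gave for 77 of the 93 genes. The NRF-1 type core GCGCATGC, which is GCATGCGC on the other strand, was found in 12 of the 77 (15.6%), against 3.05% of the 27025 genes with a window and 4.29% of the 15562 of them that were on the arrays. CCGGAAG, of the ETS or GABP type, was found in 21 (27.3% against 9.93% and 13.6%), and AAGATGGC, of the YY1 type, in 10 (13.0% against 3.19% and 3.77%). The GC box GGGCGG was found in 37 (48.1% against 38.2% and 53.0%). Sdhb, Uqcr11 and Uqcrc1 were among those with the NRF-1 type core. A match is a description of these letters and shows no binding.

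The GMP control arrays differed among themselves across the respiratory chain genes, with replicate 1 high and replicates 2 and 3 low. Taking for each array the median over the 93 genes of the deviation from the gene's own mean, the 3 GMP fl/+ arrays stood at 0.28, -0.30 and -0.27. The other 12 arrays lay between -0.05 and 0.17, the highest being preGM +/+ replicate 2. All genes tested lay between -0.03 and 0.06 on the same measure. Within GMP fl/+ the SD (root mean square) came to 0.429 over the 93 genes and 0.319 over all genes. In the other groups it lay between 0.134 and 0.209, and between 0.165 and 0.269 over all genes.

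**Figure D1:**
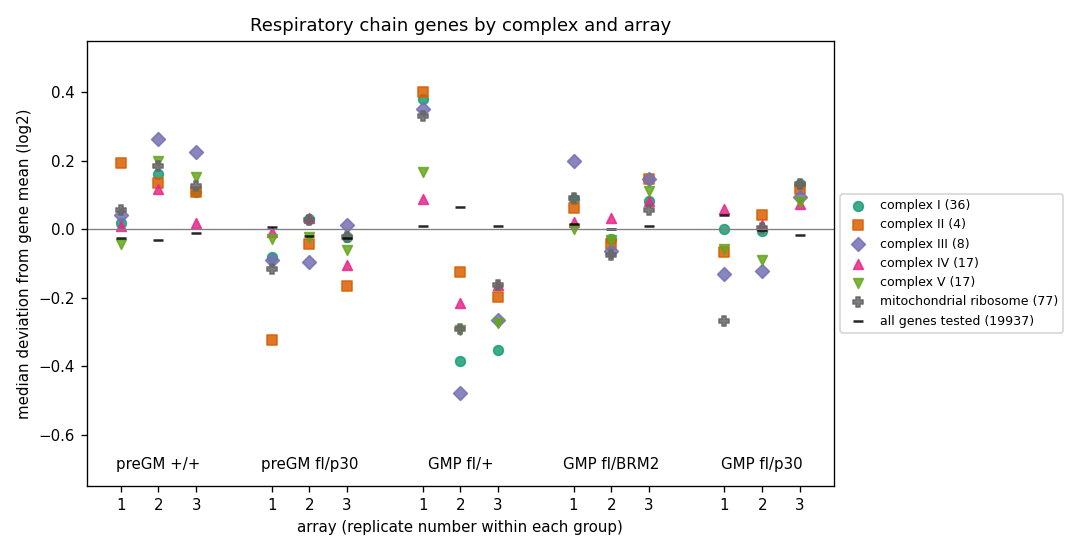
Median log2 deviation of a gene from its own 15-array mean (vertical axis) for the subunits of complexes I to V, the mitochondrial ribosome and all genes tested, 1 column per array, with the number of genes in brackets. In GMP fl/+ every complex lies above 0 on replicate 1 and below 0 on replicates 2 and 3, and all genes tested stay between -0.03 and 0.06.

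In GMP fl/+, replicate 1 exceeded the mean of replicates 2 and 3 in 87 of the 93 genes, with a median of 0.60. Over all genes tested the same difference had a median of -0.03 and was above 0 in 45.5%, and over the genes at or above the overall median it was 0.12 and 60.7%. It was above 0 in all 36 complex I genes (median 0.72), in all 4 of complex II (0.58), in all 8 of complex III (0.79), in 13 of 17 of complex IV (0.24) and in 16 of 17 of complex V (0.40). It was widest in Sdhb, the iron-sulfur subunit of complex II, and in Ndufb8, a membrane-arm subunit of complex I (1.34 each), and lowest in the testis isoform Cox6b2 (-0.70). Of the 93 genes, 43 had their highest value of all 15 arrays on replicate 1, 34 their lowest on replicate 2 and 21 their lowest on replicate 3.

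Other gene sets split the same control arrays. On the 3 GMP fl/+ arrays the median deviation was 0.33, -0.29 and -0.16 in 77 mitochondrial ribosome genes, and 0.25, -0.45 and -0.22 in 12 genes of the TCA cycle. The 15 G2 and M phase genes stood at 0.42, -0.17 and 0.18, and 51 small nucleolar RNA genes ran the other way, at -0.48, 0.94 and 1.25. The labels name no batch that separates these arrays. The part of cell cycle and of RNA preparation in this split was not tested.

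The p30 and BRM2 alleles were compared with the fl/+ control in GMPs to ask which genes each mutant deregulates before leukaemia. Cox7a2l was the single respiratory chain gene called, and it was higher in both mutants. Against GMP fl/+, 1 of the 93 genes was called higher in GMP fl/p30, where 4.69% of all genes were, and 0 lower, where 1.37% were. In GMP fl/BRM2, 1 was called higher, where 1.89% of all genes were, and 0 lower, where 0.642% were. At an unadjusted p under 0.05 there were 7 of the 93 for p30 (3989 of all genes) and 10 for BRM2 (2985). The median difference of the 93 genes was 0.09 for p30, with 61 above 0, and 0.12 for BRM2, with 69 above 0, against -0.04 and -0.02 over all genes. Both comparisons share the GMP fl/+ arrays.

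These counts depended on which control arrays were used. Without GMP fl/+ replicate 1, 27 of the 93 genes were called higher in p30 (10.8% of all genes) and 0 lower (4.64%), with a median of 0.29. In BRM2 they were 27 higher (7.64%) and 0 lower (3.48%), with a median of 0.34. With replicate 1 as the only control, an alternative chosen after seeing the data, the medians were -0.29 and -0.24. In each mutant 86 of 93 differences were below 0. The sign of the median thus followed the control array, and no direction is given here for the set as a whole.

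**Figure D2:**
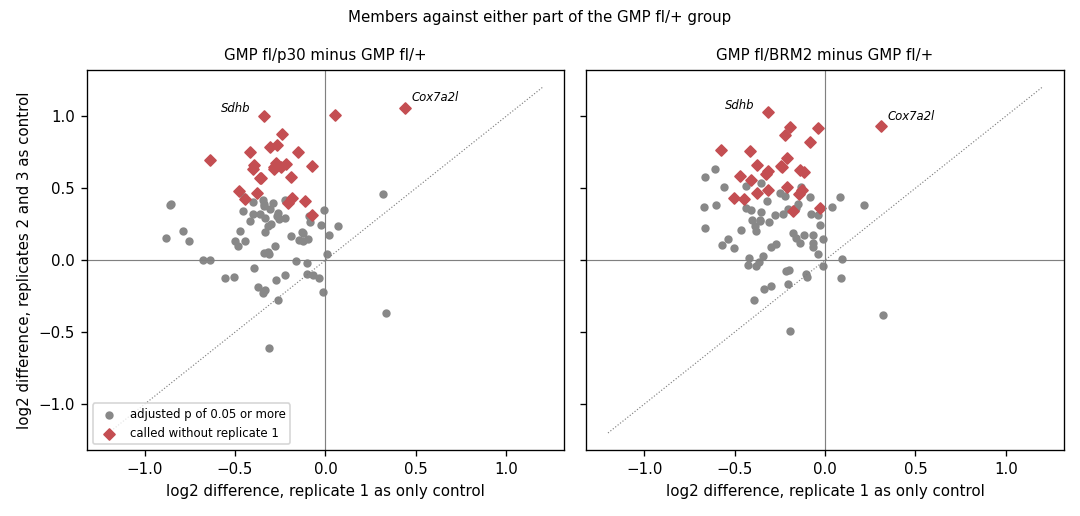
Log2 difference of each of the 93 genes in GMP fl/p30 (left) and GMP fl/BRM2 (right) against replicate 1 of GMP fl/+ alone (horizontal) and against replicates 2 and 3 (vertical). Diamonds are genes called against replicates 2 and 3, 27 in each panel, and the dotted line marks equality. Most points lie left of 0 and above 0, and Cox7a2l lies to the right of 0 in both panels.

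Complex I, which takes electrons from NADH, had no called subunit in either mutant. The median difference of its 36 genes was 0.14 in p30, with 29 above 0, and 0.16 in BRM2, with 30 above 0. Its highest member in both was Ndufb5, an accessory subunit of the membrane arm. Ndufb5 read 11.24, 9.87 and 10.38 in the 3 GMP fl/+ arrays, 10.98, 10.98 and 11.18 with BRM2, and 10.95, 10.94 and 11.11 with p30. The first control array lay above every mutant array and the other two below, so the groups overlap. The difference was 0.50 ± 0.23 for p30 (adjusted p = 0.244) and 0.55 ± 0.23 for BRM2 (0.277), and it was called without that array (adjusted p = 0.00123 and 0.0017).

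The core subunits of complex I showed the same split. Ndufv1, which binds NADH and the flavin, read 9.89, 8.47 and 8.96 in GMP fl/+, 9.41, 9.31 and 9.70 with BRM2 and 9.31, 9.52 and 9.57 with p30, with differences of 0.37 ± 0.26 for BRM2 and 0.36 ± 0.26 for p30 (adjusted p = 0.576 and 0.484). Ndufs1, the largest iron-sulfur subunit, differed by 0.29 ± 0.18 for BRM2 and 0.20 ± 0.18 for p30 (adjusted p = 0.506 and 0.602). The lowest member for p30 was the core iron-sulfur subunit Ndufs7. It read 9.10, 8.67 and 8.66 in the control and 8.48, 8.65 and 8.50 in p30, without overlap, and the difference of -0.27 ± 0.16 did not pass (adjusted p = 0.403).

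Complex II, the succinate dehydrogenase shared with the TCA cycle, had 4 subunits and no call. Sdhb carries its iron-sulfur clusters and read 10.13, 8.40 and 9.18 in GMP fl/+. It read 9.80, 9.66 and 9.99 with BRM2 and 9.72, 9.91 and 9.75 with p30, inside the range of the control. The mutants differed from the control by 0.58 ± 0.30 and 0.56 ± 0.30 (adjusted p = 0.399 and 0.328), and by 1.028 and 1.003 without control replicate 1, where both were called (adjusted p = 0.00716 and 0.00543). Sdha, the flavoprotein that oxidises succinate, differed by 0.01 ± 0.15 for BRM2 and -0.06 ± 0.15 for p30. The membrane anchor Sdhd, the lowest member in both mutants, differed by -0.11 ± 0.16 and -0.10 ± 0.16 (adjusted p = 0.84 and 0.8).

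Complex III, the cytochrome bc1 complex, had 8 members and no call, with medians of 0.22 in BRM2 and 0.05 in p30. Uqcrh, the hinge subunit that helps to dock cytochrome c, was the highest in both. It read 11.87, 10.61 and 11.31 in GMP fl/+, 11.87, 11.62 and 11.87 with BRM2 and 11.88, 11.47 and 11.79 with p30, and control replicate 2 was the low array. Its differences of 0.52 ± 0.23 and 0.45 ± 0.23 did not pass (adjusted p = 0.3 for each). The core subunit Uqcrc1 differed by 0.02 ± 0.23 for BRM2 and -0.19 ± 0.23 for p30, and the Rieske iron-sulfur protein Uqcrfs1 by 0.29 ± 0.20 and 0.26 ± 0.20. The lowest members were the small subunits Uqcrq in BRM2 (-0.12 ± 0.20, adjusted p = 0.866) and Uqcr10 in p30 (-0.25 ± 0.18, adjusted p = 0.479).

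Complex IV, cytochrome c oxidase, held the called gene. Cox7a2l encodes a protein related to the complex IV subunits of the Cox7a family that is known to join complexes III and IV into a supercomplex, and C57BL/6 mice are known to carry a shortened form of it. Its level (probe set 10453254) was 10.82, 10.08 and 10.32 in GMP fl/+, 10.97, 11.29 and 11.14 with BRM2 and 11.38, 11.20 and 11.20 with p30. In preGMs it was 11.36, 11.30 and 11.36 in +/+ and 11.23, 11.51 and 11.32 in fl/p30. The 3 GMP fl/+ arrays were the lowest of all 15, and they overlapped with no other group.

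Cox7a2l was 1.80-fold higher in GMPs with the p30 allele than in the control, a log2 difference of 0.85 ± 0.16 (limma, adjusted p = 0.00521). In GMP fl/BRM2 it was 1.65-fold higher, by 0.72 ± 0.16 (adjusted p = 0.0266). A second probe set annotated to the gene differed by 0.71 and 0.60. On that set the control read 10.34, 9.56 and 9.57, and its first array lay above the lowest fl/BRM2 array (10.33). The p30 call held without each of the 6 arrays in turn (adjusted p up to 0.0304), and that of BRM2 did not hold without replicate 2 or replicate 3 of either group (up to 0.165). Both were lost against control replicate 1 alone, with differences of 0.44 (adjusted p = 0.236) and 0.31 (0.534), and in fits on the 6 arrays of each comparison alone (0.135 and 0.23).

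Among the other subunits of complex IV, Cox5a, which is present in every tissue, read 10.60, 9.37 and 9.92 in GMP fl/+, 10.46, 10.38 and 10.85 with BRM2 and 10.84, 10.46 and 10.65 with p30. It differed by 0.60 ± 0.23 and 0.69 ± 0.23 (adjusted p = 0.23 and 0.103). Cox4i1, the main form of subunit 4, read 12.12, 11.37 and 11.40 in the control, with differences of 0.17 ± 0.19 and 0.15 ± 0.19. Control replicate 1 lay above all mutant arrays in Cox4i1 and between them in Cox5a.

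Several complex IV subunits come as isoforms. Cox4i2, the form of lung and hypoxic cells, lay below the array median on 3 arrays and was lower than the control in all 3 p30 arrays, with a difference of -0.10 ± 0.10 (adjusted p = 0.623). Cox6a2, the form of heart and skeletal muscle, read 7.21, 7.07 and 7.06 in GMP fl/+ and 7.06, 7.79 and 7.73 in fl/p30, with a difference of 0.41 ± 0.18 (adjusted p = 0.214). It was called without p30 replicate 1, where 2.69% of all genes were. It was also called without both arrays of that mouse (0.65 ± 0.15, adjusted p = 0.0496), an alternative added after seeing the data. There 2.55% of all genes were called. Cox6a1, the common counterpart of Cox6a2, differed by 0.10 ± 0.14. The common forms Cox6b1, Cox7a2, Cox7b and Cox8a differed by between -0.06 and 0.16 in p30 and between -0.02 and 0.23 in BRM2, and none was called. Cox7a1, the muscle form of subunit 7a, differed by 0.23 ± 0.20 in p30 and 0.32 ± 0.20 in BRM2. The lowest members were Cox8c in p30 (-0.27 ± 0.10, adjusted p = 0.126) and Cox6b2 in BRM2 (-0.15 ± 0.24, 0.863). Cox7b2 and Cox8b, both near background, lay between -0.15 and -0.03 in the mutants. Ndufa4, named for complex I but now assigned to complex IV, differed by 0.17 ± 0.18 in p30 and 0.10 ± 0.18 in BRM2. Ndufa4l2, its hypoxia-linked relative, differed by 0.03 ± 0.11 and -0.18 ± 0.11, the latter the lowest value under the complex I names in BRM2.

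Complex V had no called subunit, with medians of 0.08 in p30 and 0.17 in BRM2. Atp5a1, the alpha subunit of the catalytic head, was its highest member in both. It read 11.54, 10.48 and 10.76 in GMP fl/+, 11.25, 11.27 and 11.48 with BRM2 and 11.19, 11.22 and 11.36 with p30. The mutant arrays lay between control replicate 1 and the other control arrays, and the differences of 0.40 ± 0.20 and 0.33 ± 0.20 did not pass (adjusted p = 0.365 and 0.395). Atp5b, the beta subunit that forms ATP, differed by 0.23 ± 0.11 and 0.19 ± 0.11 (adjusted p = 0.358 and 0.397).

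The lowest member of complex V was Atp5mpl, a small membrane subunit, which read 11.92, 11.68 and 11.94 in the control, 11.56, 11.39 and 11.65 with BRM2 and 11.60, 11.46 and 11.68 with p30. All mutant arrays lay at or below the lowest control array, and the differences were -0.31 ± 0.14 and -0.27 ± 0.14 (adjusted p = 0.315 and 0.321). The 3 genes of the rotor ring subunit c, Atp5g1, Atp5g2 and Atp5g3, encode the same mature protein. They differed by -0.09, 0.09 and 0.05 in p30 and by 0.04, 0.26 and 0.17 in BRM2, each with an SE of 0.12 to 0.17, and none was called.

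Of the 11 assembly factors, 0 were called in either mutant. Ndufaf4, which acts early in building complex I, had the lowest difference of all 93 genes in both, at -0.51 ± 0.18 in p30 and -0.39 ± 0.18 in BRM2 (adjusted p = 0.125 and 0.327). It read 10.08, 10.51 and 10.24 in GMP fl/+, 10.05, 9.61 and 9.99 with BRM2 and 9.30, 9.90 and 10.10 with p30, and the lowest array was p30 replicate 1. Without p30 replicate 3 it was called lower in p30, the other gene beside Cox7a2l in that setting. There 7.69% of all genes were called in either direction.

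Few of the 93 genes separated the mutant arrays from the control arrays. In p30, 1 gene had all arrays above the control (Cox7a2l, where 9.16% of all genes did) and 4 below (Atp5mpl, Cox4i2, Cox8c and Ndufs7, where 8.27% did). In BRM2, 2 lay above (Cox7a2l and Ndufaf7, against 6.74%) and 4 below (Atp5mpl, Cox8c, Ndufa4l2 and Ndufaf4, against 8.51%). Of these, Cox8c and Ndufa4l2 lay below the median of every array.

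**Figure D3:**
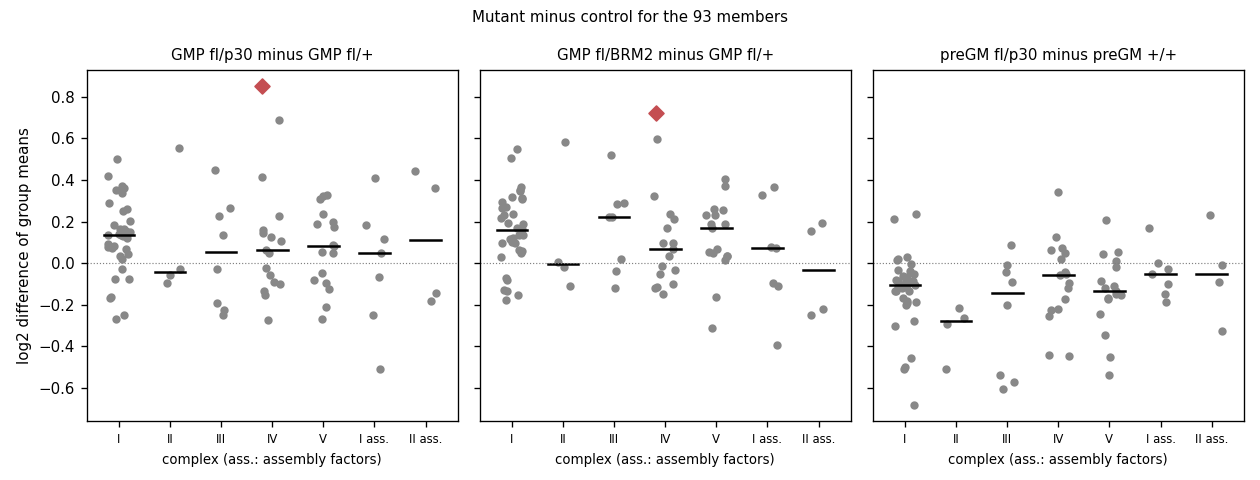
Log2 difference of each of the 93 genes (grey points) in the 3 comparisons of a mutant with its control, by complex, with the median of each class as a line and called genes as red diamonds. Cox7a2l of complex IV, at 0.85 and 0.72, is the only called gene, and in preGMs the medians of all 7 classes lie below 0.

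The p30 allele was compared with the wild-type control in preGMs for its effect at the earlier stage. Most respiratory chain genes lay slightly lower in preGM fl/p30, and none passed the test. Of the 93 genes, 0 were called higher, where 0.647% of all genes were, and 0 lower, where 1.03% were, and 7 had an unadjusted p under 0.05 (2794 of all genes). The median difference was -0.10 with 74 below 0, against 0.03 over all genes, and it stayed between -0.15 and -0.06 when each array was left out. By class it was -0.10 in complex I, -0.28 in complex II, -0.15 in complex III, -0.06 in complex IV and -0.14 in complex V. The lowering was not particular to these genes. The median was -0.17 in 77 mitochondrial ribosome genes, with 11 above 0, and -0.27 in 12 TCA cycle genes, with 2 above 0. The other pathway lists given below also had medians below 0, apart from 3 assembly factors of complex III (0.06).

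In 20 of the 93 genes all 3 preGM fl/p30 arrays lay below all preGM +/+ arrays, 21.5%, where 12.8% of all genes did. They were 8 subunits of complex I, 3 each of complexes II and III, 1 of complex IV, 4 of complex V and the assembly factor Sdhaf1. In 3 genes they lay above (Cox7a1, Cox8c and Ndufa4l2), where 12.4% of all genes did. The 3 are isoforms of other tissues or of hypoxia, with levels near or below the array medians.

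Ndufs8, a core iron-sulfur subunit of complex I, had the lowest difference in preGMs. It read 9.32, 9.53 and 9.64 in +/+ and 8.60, 9.04 and 8.79 in fl/p30. No array overlapped, and the difference was -0.68 ± 0.25 (adjusted p = 0.235). Uqcrc1, a core subunit of complex III, read 9.28, 9.47 and 9.56 against 8.64, 9.12 and 8.73, a difference of -0.61 ± 0.23 (adjusted p = 0.261). Uqcr11, a small subunit of complex III, read 9.65, 9.94 and 9.73 against 9.28, 9.39 and 9.05, a difference of -0.54 ± 0.28 (adjusted p = 0.411).

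In complex II, Sdhb was at 10.16, 10.19 and 10.21 in +/+ and at 9.37, 10.01 and 9.66 in fl/p30 (-0.51 ± 0.30, adjusted p = 0.477). Sdha, at -0.29 ± 0.15, and Sdhd, at -0.22 ± 0.16, also had no overlap. In complex V the delta subunit Atp5d, part of the stalk of the catalytic head, read 9.84, 9.77 and 9.71 against 9.09, 9.49 and 9.14 (-0.54 ± 0.22, adjusted p = 0.292). Atp5o, which ties the head to the outer stalk, read 10.74, 11.00 and 11.00 against 10.51, 10.41 and 10.46 (-0.45 ± 0.23, adjusted p = 0.393). Replicate 1 of fl/p30 was the lowest of the 3 in Sdhb and Atp5d, and not in Atp5o.

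Cox4i1 in preGMs read 11.66, 11.83 and 11.77 in +/+ and 11.12, 11.69 and 11.13 in fl/p30, so the second fl/p30 array overlapped with the control (-0.44 ± 0.19, adjusted p = 0.311). Cox6b2 had the lowest difference of complex IV (-0.45 ± 0.24) and Cox7a1 the highest (0.34 ± 0.20). The highest members elsewhere were Ndufa4l2 (0.24 ± 0.11), Uqcrb of complex III (0.09 ± 0.20) and Atp5md of complex V (0.21 ± 0.14), none of them called. Cox7a2l, called in the mutant GMPs, differed by 0.02 ± 0.16 in preGMs (adjusted p = 0.974).

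The preGM arrays varied less than the GMP fl/+ arrays that share the estimate of the spread. In a fit on the 6 preGM arrays alone, 5 of the 93 genes were called lower and 0 higher, where 3.40% and 1.97% of all genes were. The 5 were Ndufs8 (adjusted p = 0.0222), Uqcrc1 (0.0415), Uqcr11 (0.0411), Atp5d (0.0419) and Atp5o (0.0494). The G2 and M phase genes moved with this comparison: 15 of 15 lay below 0, with a median of -0.42, and 0 were called. Secondary granule genes did as well, with 3 of 11 called lower and a summed level (log2) of 9.18 to 9.58 in fl/p30 against 10.95 to 12.39 in +/+. The summed level of mast and basophil genes was 12.02 to 12.44 in fl/p30 against 10.95 to 11.12 in +/+, with Cpa3 called higher and Hdc lower of 8. That of erythroid genes was 12.04 to 12.57 against 11.28 to 11.62, with 0 of 9 called, and that of megakaryocyte genes 9.46 to 9.84 against 9.04 to 9.33, with 0 of 7 called. For T and NK genes it was 9.76 to 10.25 against 8.81 to 9.06, with Lat of 8 called higher and Cd3g, Cd3d, Cd4, Klrd1 and Ncr1 below the array median on all 15 arrays. The 13 gate and identity genes had a median of -0.57, with 3 above 0 and Flt3 called lower. Their summed level was 13.48 to 13.72 in fl/p30 against 14.19 to 14.29 in +/+. The 8 B lymphoid genes, with 0 called, stood apart on preGM +/+ replicate 3. Their median deviation was -0.11, -0.13 and 1.73 on the +/+ arrays. Their summed level was 9.85 to 12.05 in +/+ and 10.42 to 10.78 in fl/p30. The part of all these gene sets in the values above was not tested. In sorted bulk samples, fewer cells of a kind and less RNA per cell cannot be told apart.

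**Figure D4:**
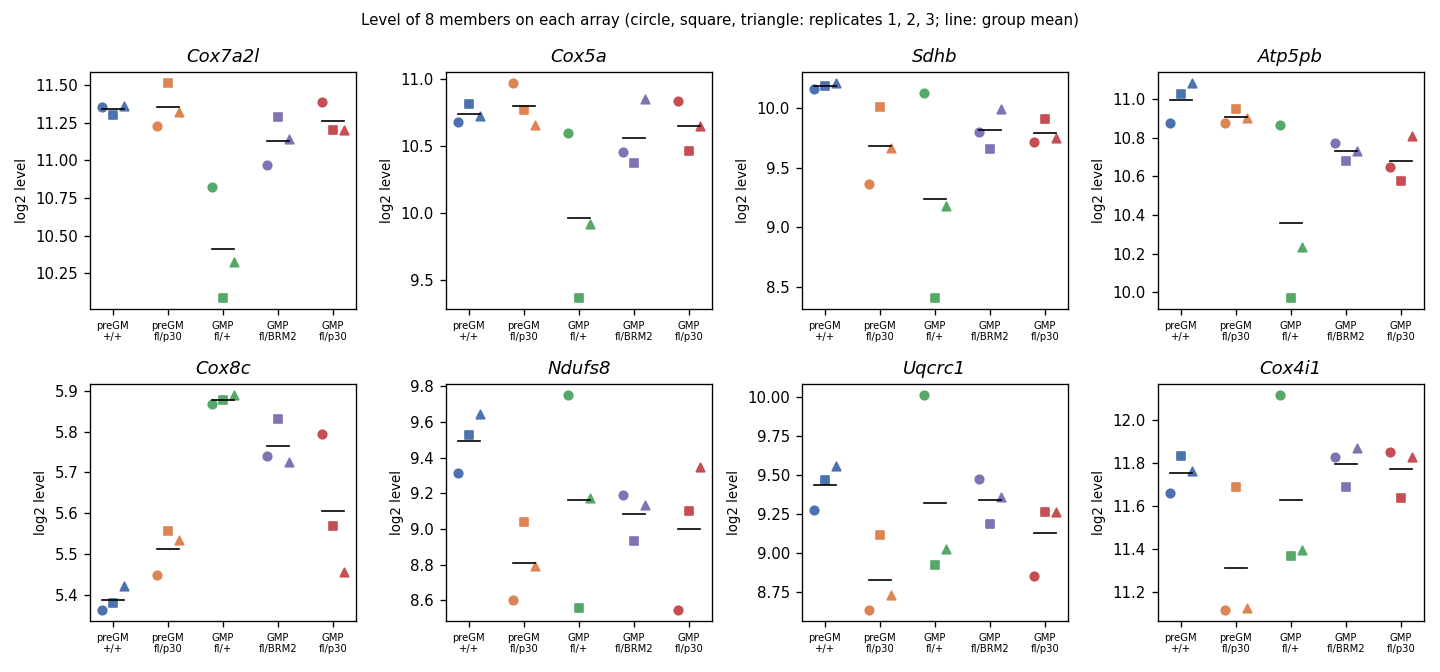
Log2 level of 8 of the genes on each of the 15 arrays, by group, with replicates 1, 2 and 3 as circle, square and triangle and the group mean as a line. In Cox7a2l all GMP fl/+ arrays lie below every other array, and in Sdhb, Uqcrc1 and Cox4i1 replicate 1 of GMP fl/+ lies far above replicates 2 and 3.

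The controls of the stages, GMP fl/+ and preGM +/+, differ in stage and in 1 floxed allele, which cannot be told apart. Of the 6 genes called, 3 belong to cytochrome oxidase and 2 are assembly factors, and most of the 93 genes lay lower in GMP fl/+. Of them, 5 were called lower, where 6.02% of all genes were, and 1 higher, where 4.19% were. An unadjusted p under 0.05 was found for 23 (24.7%), against 31.7% of all genes. The median difference was -0.16 with 72 below 0, against 0.09 over all genes. Cox7a2l fell by 0.93 ± 0.16 (adjusted p = 0.00368), 1.90-fold, and held without each array in turn (up to 0.0205), though not with GMP fl/+ replicate 1 as the only GMP array (0.142).

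The other 4 lower genes were Sdhaf4, which protects newly flavinylated Sdha, Cox5a, Atp5pb, a subunit of the outer stalk of ATP synthase, and Ndufaf7, a methyltransferase of complex I assembly. Sdhaf4 read 8.40, 8.27 and 8.25 in preGM +/+ and 8.16, 6.94 and 7.24 in GMP fl/+, and fell by 0.86 ± 0.25 (adjusted p = 0.0452), but its second, dimmer probe set differed by 0.07. Cox5a, at 10.68, 10.81 and 10.73 in preGM +/+, fell by 0.78 ± 0.23 (0.0482). Atp5pb, at 10.88, 11.03 and 11.08 against 10.87, 9.97 and 10.23, fell by 0.64 ± 0.17 (0.0319), and its second probe set differed by -0.24. With the mean of each gene's probe sets neither Sdhaf4 (-0.40 ± 0.17, adjusted p = 0.122) nor Atp5pb (-0.44 ± 0.16, 0.0865) was called.

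Ndufaf7 read 9.56, 9.21 and 9.21 in preGM +/+ and 8.97, 8.75 and 8.86 in GMP fl/+, and fell by 0.47 ± 0.14 (adjusted p = 0.0442). These 4 calls were each lost in 5 of the 6 settings that left out 1 array, all but the one without GMP fl/+ replicate 1. With the animal as a block, which pairs the fl/p30 arrays, Cox5a and Sdhaf4 were not called (adjusted p = 0.0546 and 0.0545) and Ndufaf3, an assembly factor of complex I, was called higher (0.48, 0.0156). Cox8c, the testis form of subunit 8, was the gene called higher, at 5.36, 5.38 and 5.42 against 5.87, 5.88 and 5.89 (0.49 ± 0.10, adjusted p = 0.00843), all below the array median. Without GMP fl/+ replicate 1, 41 of the 93 genes were called lower (13.5% of all genes) and 1 higher (10.0%), and the median was -0.38. With that replicate as the only GMP control the median was 0.20.

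Within fl/p30, where preGMs and GMPs come from the same animals, 0 of the 93 genes were called higher in GMPs, where 0.356% of all genes were, and 0 lower, where 0.286% were, and 7 had an unadjusted p under 0.05 (2475 of all genes). The median difference was 0.05. The highest was Cox4i1 (0.46 ± 0.19) and the lowest Ndufab1, which also serves as the acyl carrier protein of mitochondria (-0.54 ± 0.19). With the animal as a block the count was also 0. Cox7a2l differed by -0.09 ± 0.16.

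The mutants were also set against each other. In GMP fl/p30 against GMP fl/BRM2, 0 of the 93 genes were called higher and 0 lower, where 0.00502% and 0% of all genes were, and 1 had an unadjusted p under 0.05 (688 of all genes). Cox6a2 was the highest (0.53 ± 0.18) and Ndufab1 the lowest (-0.31 ± 0.19). In complex III all 8 differences were below 0, with a median of -0.10. Cox7a2l differed by 0.13 ± 0.16.

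Whether p30 acted differently at the stages was tested as the p30 effect in GMPs minus that in preGMs. Of the 93 genes 0 were called higher and 0 lower, where 0.00502% and 0% of all genes were, and 7 had an unadjusted p under 0.05 (2616 of all genes). The median was 0.24, with 73 above 0, against -0.05 over all genes. Sdhb stood highest at 1.06 ± 0.42 (adjusted p = 0.327), followed by Atp5d (0.84 ± 0.31, 0.296), Cox7a2l (0.83 ± 0.22, 0.17) and Ndufv1 (0.82 ± 0.36, 0.362). Without GMP fl/+ replicate 1, 20 were called higher (5.52% of all genes) and 0 lower (1.91%), with a median of 0.42. With that replicate as the only GMP control the median was -0.17.

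Other genes of the pathway, taken from lists chosen with earlier results of these data known, gave few calls. The factors that bind the promoter motifs were not called in any mutant. Gabpa differed by 0.28 ± 0.15 in p30 and 0.25 ± 0.15 in BRM2 GMPs, Nrf1 by -0.03 ± 0.13 and 0.15 ± 0.13, and Yy1 by 0.29 ± 0.12 and 0.20 ± 0.12. Among 12 transcription factors and coactivators of mitochondrial genes, 3 were called lower in GMP fl/+ than in preGM +/+, where 6.02% of all genes were. The list had median deviations of 0.06, -0.27 and -0.19 on the GMP fl/+ arrays. Tfam, which packages and transcribes mitochondrial DNA, read 8.93, 8.83 and 9.01 against 8.49, 7.01 and 7.69 and fell by 1.19 ± 0.26 (adjusted p = 0.0133). Tfb1m, a methyltransferase of mitochondrial ribosomal RNA, fell by 0.77 ± 0.22 (0.0431), and Ppargc1a, the coactivator PGC-1α, by 0.57 ± 0.15 (0.0309) at levels below the array medians.

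None of the 12 TCA cycle genes, 6 mitochondrial transport genes (carriers and VDAC pores), 10 assembly factors of complex IV, 3 of complex III and 6 of complex I outside the Ndufaf names, 3 accessory genes of complex V and 2 electron carrier genes was called in any of the 7 comparisons. The 6 transport genes were all above 0 in both GMP mutants, with medians of 0.24 in p30 and 0.37 in BRM2, and all 6 below 0 in GMP fl/+ against preGM +/+ (-0.40). These signs rest on the control arrays: on GMP fl/+ the median deviation of the 6 genes was 0.20, -0.58 and -0.40, and on the 6 mutant GMP arrays it lay between -0.20 and 0.25. Among 8 genes of pyruvate entry, Pdk2, a kinase that inhibits pyruvate dehydrogenase, was called higher in p30 GMPs (0.59 ± 0.12, adjusted p = 0.0107) and Pdk3 lower in GMP fl/+ than in preGM +/+ (-1.08 ± 0.32, 0.0467). Coq9, needed to make coenzyme Q, was called lower in BRM2 GMPs (-0.49 ± 0.11, 0.0231) and higher in GMP fl/+ than in preGM +/+ (0.58 ± 0.11, 0.00507). Pdss2, which helps to make the tail of coenzyme Q, was called lower in the latter comparison (-0.68 ± 0.16, 0.0181). Of the 77 mitochondrial ribosome genes, 3 were called lower in p30 GMPs (Mrps17, Mrps15 and Mrpl33), where 1.37% of all genes were. In BRM2 GMPs and in p30 preGMs 0 were called. In GMP fl/+ against preGM +/+, 2 were called lower (Mrpl3 and Mrpl47), where 6.02% of all genes were.

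Markers of other cell types moved with the GMP comparisons. Of 9 erythroid genes, 6 were called higher in p30 and 6 in BRM2 GMPs, and their summed level (log2) was 9.88 to 10.24 in GMP fl/+, 11.07 to 12.48 with BRM2 and 11.35 to 12.26 with p30. Of 11 secondary granule genes, 5 were called lower and 1 higher in p30 and 1 lower in BRM2 GMPs, with a summed level of 12.52 to 13.21 in GMP fl/+, 9.84 to 12.40 with BRM2 and 9.35 to 11.83 with p30. The 8 mast and basophil genes were split, with 3 higher and 3 lower in p30 GMPs and 3 higher and 2 lower in BRM2 GMPs. Of 7 megakaryocyte genes, all lay above 0 and 2 were called higher in each mutant, with a summed level of 8.89 to 9.02 in GMP fl/+, 9.47 to 9.82 in fl/BRM2 and 9.33 to 9.85 in fl/p30. Of 8 T and NK genes, Lat, Cd3g and Klrd1 were called higher in p30 and Lat in BRM2. Of these, Cd3g and Klrd1 lay below the array median on all 15 arrays. The summed level of the 8 genes was 8.57 to 8.99 in GMP fl/+, 9.51 to 10.06 in fl/BRM2 and 9.62 to 10.36 in fl/p30. None of the 8 B lymphoid and 7 macrophage genes was called in either. The 13 gate and identity genes had a median of -0.26 in p30 GMPs, with 5 above 0 and Itga2b called higher. In BRM2 GMPs their median was -0.08, with 5 above 0 and 0 called. Their summed level was 14.53 to 14.88 in GMP fl/+, 13.82 to 14.58 in fl/BRM2 and 13.67 to 14.71 in fl/p30. The 51 small nucleolar RNA genes had a median of -1.19 in p30, with 4 called lower, and of -0.79 in BRM2, with 0 called. The 15 G2 and M phase genes had a median of -0.53 in p30 GMPs, with 1 above 0, and 0.07 in BRM2 GMPs, with 10 above 0, and 0 were called in either. Within fl/p30, replicate 1 stood lowest in them in GMPs (-0.81) and in preGMs (-0.58). Their part in the level of Cox7a2l and of the other respiratory chain genes was not tested.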

How the data were processed

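Affymetrix arrays of 15 samples were analysed from the log2 values that the authors deposited. Per the submitters' processing notes these were made with affy and RMA (tool versions: not given in the sources used here). Amplification started from 20 ng of total RNA, per the labels' protocols. The table held 34760 probe sets, of which the platform annotation gave 1 gene symbol to 21640, several to 1321 and none to 11799, which are unnamed here. Each of 19937 genes was represented by its probe set with the highest mean over the arrays. The 93 genes described had 118 probe sets (18 genes had more than 1), and all 93 matched RefSeq. In 6 to 13 of the 25 other probe sets the sign differed, depending on the comparison. Another 6 probe sets with several symbols were left out.

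A model with 5 group means over 15 arrays was fitted with limma 3.58.1 in R 4.3.3 (lmFit, eBayes with a constant prior, residual degrees of freedom 10, prior 4.24), with Benjamini-Hochberg adjustment over all genes in each of 7 comparisons. The fit was tested on simulated data.

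The genes, lists and alternatives were chosen with earlier results of these data known, and 2 alternatives were added after the arrays were seen. Named genes were the called ones, the highest and lowest of each complex in each mutant comparison, the core subunits and the isoform families. Others, such as Ndufb8, Ndufaf4, Uqcr11 and Atp5o, were chosen after their values were seen. Replicate numbers pair arrays only in fl/p30, by animal, and same-animal deviations correlated at 0.334, 0.32 and 0.116 over all genes.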

Additional observations from a re-analysis of the deposited data

Results flagged for a closer look

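In the 5 genes below every fl/p30 array lay above the control mean in GMPs and below it in preGMs, or the reverse. They are not the full list, since other genes, such as Ndufs3, Atp5g2 and Ndufv1, also met this rule. The limma test of that difference (the effect in GMPs minus the effect in preGMs) called none of these genes. Sdhb stood at 0.56 in GMPs and -0.51 in preGMs, a difference of 1.063 (adjusted p = 0.327), and Atp5d at 0.31 and -0.54, a difference of 0.844 (0.296). Atp5a1 stood at 0.33 and -0.35, a difference of 0.675 (0.341), and Atp5pb at 0.32 and -0.09 (-0.085), a difference of 0.406 (0.467). Cox8c, near background, ran the other way, at -0.27 and 0.12 (0.125), a difference of -0.397 (0.266). The GMP values of Sdhb, Atp5d, Atp5a1 and Atp5pb rest on the GMP fl/+ arrays, whose replicate 1 stood apart from replicates 2 and 3. Cox8c did not share that split, with a GMP value of -0.28 without replicate 1 and -0.26 against it alone.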

How the results depend on the processing

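Of 510 values of named genes under alternatives, 426 kept direction and call, 44 lost a call, 22 gained one and 18, none called, turned direction. With GMP fl/+ replicate 1 as the only control these were, for p30, Ndufb5 (-0.241), Sdhb (-0.339), Uqcrh (-0.155) and Atp5a1 (-0.283), and for BRM2 Ndufb5 (-0.194), Sdhb (-0.313), Uqcrh (-0.083), Atp5a1 (-0.208) and Cox6b2 (0.32). Leaving out 1 array at a time, Sdhd ranged from -0.215 to 0.097 for p30 and from -0.239 to 0.083 for BRM2, Uqcrq from -0.254 to 0.105 and Cox6b2 from -0.379 to 0.007 for BRM2, and Uqcrb from -0.046 to 0.21 in preGMs. Uqcrq was above 0 with array weights too (0.069), and Uqcrb below 0 without both arrays of the fl/p30 mouse of replicate 1 (-0.046). With 1 array left out, genes called ranged from 1 to 27 for p30 in GMPs, 0 to 27 for BRM2, 2 to 42 for GMP fl/+ against preGM +/+ and 0 to 20 for the difference of p30 effects, and were 0 in the other comparisons. The share of all genes called ranged from 2.69% to 15.4%, 0.672% to 11.1%, 3.19% to 23.5% and 0% to 7.43%, and was at most 1.12% in the others. The medians ranged from 0.004 to 0.291, 0.011 to 0.34, -0.383 to -0.068 and 0.123 to 0.421 in the same order. The highest counts came without GMP fl/+ replicate 1, where the share of all genes called was also highest. With that array as the only GMP control the medians were -0.29, -0.243, 0.199 and -0.169. Without both arrays of the fl/p30 mouse of replicate 1, 2 were called for p30 in GMPs, where 2.55% of all genes were. Both of these settings were chosen after the data were seen. Fits on the compared arrays alone called 0 for p30 and 0 for BRM2 in GMPs, where 0.863% and 0.657% of all genes were. They called 5 for p30 in preGMs (5.37% of all genes) and 2 for GMP fl/+ against preGM +/+ (3.74%). Array weights called 13 for p30, 13 for BRM2, 3 for p30 in preGMs, 1 between the mutants, 5 between the fl/p30 stages, 26 for GMP fl/+ against preGM +/+ and 10 for the difference of effects, where 20.4%, 11.0%, 5.85%, 1.42%, 9.77%, 23.4% and 9.99% of all genes were called under the same weights. The cause of these changes was not tested. With the replicate number as a block, which pairs no animals outside fl/p30, counts were 1, 1, 0, 0, 0, 4 and 0 in the order of the 7 comparisons given, and with the animal as a block 1, 1, 0, 0, 0, 5 and 0. Of all genes, 5.92%, 2.19%, 1.31%, 0%, 0.547%, 8.27% and 0% were called with the replicate block. With the animal block 7.2%, 2.88%, 2.22%, 0.0301%, 0.863%, 11.9% and 0.125% were. The mean of each gene's probe sets called 4 for GMP fl/+ against preGM +/+, where 10.3% of all genes were called. Centring the arrays on their medians changed no count. With 3 arrays per group, and 4 genes near background, small differences were not detectable.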
